A study of Homo sapiens with 6 samples.

Results

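The genes of the proteasome were examined for occupancy by the SWI/SNF chromatin remodelling complex in MR49F and LNCaP cells. The genes were the 50 of 20037 RefSeq protein-coding genes (GRCh38.p14, the same build as the hg38 coordinates of the peak lists) whose symbol starts with PSMA, PSMB, PSMC, PSMD, PSME, PSMF or PSMG followed by a number. They encode 8 alpha and 11 beta subunits of the core particle, 6 ATPases and 14 non-ATPase proteins of the cap or its assembly, 4 activators, 1 inhibitor and 4 assembly chaperones. The remaining 2, PSMC3IP and PSME3IP1, carry the symbol of a subunit they were named after and are not proteasome subunits.

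The proteasome is the protease that degrades proteins marked with ubiquitin. Its barrel-shaped 20S core holds the cutting sites inside rings of beta subunits, and rings of alpha subunits guard the entrance. The 19S cap binds ubiquitin chains, unfolds the substrate with a ring of ATPases and feeds it into the core. SWI/SNF moves and evicts nucleosomes at promoters and enhancers. BRG1, encoded by SMARCA4, is its ATPase, and SMARCC2, also called BAF170, is a scaffold subunit.

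MR49F is an enzalutamide-resistant derivative of LNCaP and was kept in medium with 10 µM of that antiandrogen drug. LNCaP is a prostate adenocarcinoma line, and no enzalutamide is listed for its medium, so line and drug exposure cannot be told apart. Chromatin of both lines was crosslinked in a pair of steps, 2 mM of the protein crosslinker DSG (45 min) followed by 1% formaldehyde (10 min), and precipitated with 4 µg of antibody in each precipitation. Each combination of line and antibody was measured in 1 library, so differences between the lines have no replicate error and no p-value is given. The 2 input samples were not analysed here.

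The deposited lists held 44308 peaks for MR49F BRG1 and 36174 for LNCaP BRG1, and 47615 for MR49F SMARCC2 and 25706 for LNCaP SMARCC2. Peaks were ranked within a list by the authors' −log10 q, and fold and −log10 q set side by side between lists are a description only. The number of sequence tags stacked at each summit and the local background were solved from the deposited fold and p-value. The median local background was 4.56 tags in MR49F BRG1 and 5.5 in LNCaP BRG1, and 4.14 in MR49F SMARCC2 and 5.72 in LNCaP SMARCC2. Total depth is unknown from the lists. Tag counts were not adjusted for it, so set side by side between lists they too are a description only. Of 12 luminal prostate genes, all 12 had a peak in the gene span or within 2 kb of it in every list except LNCaP SMARCC2, where 11 had one. Of 11 marker genes of other tissues, 6 had one in MR49F BRG1 and 4 in LNCaP BRG1, and 4 in MR49F SMARCC2 and 3 in LNCaP SMARCC2. Among all protein-coding genes 66.3% had one in MR49F BRG1, 56.1% in LNCaP BRG1, 64% in MR49F SMARCC2 and 44.1% in LNCaP SMARCC2. Where no peak is listed, signal below the caller's threshold remains possible.

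BRG1 and SMARCC2 peaks stood at the starts of most proteasome genes in MR49F cells and, for SMARCC2, at a minority of them in LNCaP cells. A start peak is a peak whose summit lies within 1 kb of a gene start. With BRG1, 37 of 50 genes (74%, Wilson 95% interval 60.4 to 84.1) had a start peak in MR49F and 27 (54%, 40.4 to 67) in LNCaP, against 51% and 38.1% of all protein-coding genes. With SMARCC2, 34 genes (68%, 54.2 to 79.2) had one in MR49F and 17 (34%, 22.4 to 47.8) in LNCaP, against 47.9% and 26.9% of all genes. The intervals cover counting error only.

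The excess of MR49F over LNCaP in these counts was mostly absent in lists of equal length and was kept above a stricter q-value threshold. Each list was shortened to its 25706 strongest peaks, the length of the shortest list, an alternative chosen after the data had been seen. BRG1 start peaks then stood at 19 genes (38%) in MR49F and 18 (36%) in LNCaP, against 34.1% and 28.7% of all genes. SMARCC2 start peaks stood at 14 genes (28%) in MR49F and 17 (34%) in LNCaP, against 26.3% and 26.9% of all genes. MR49F therefore exceeded LNCaP by 10 genes with BRG1 in the full lists and by 1 in lists of equal length, and with SMARCC2 the order of the lines turned round. With a −log10 q of 5 or more, BRG1 start peaks stood at 30 genes (60%) in MR49F and 18 (36%) in LNCaP. The shares over all genes were 44.5% and 27.8%. SMARCC2 start peaks then stood at 29 genes (58%) in MR49F and 7 (14%) in LNCaP, against 41.7% and 17.8% of all genes. With the 10000 strongest peaks per list, BRG1 start peaks stood at 1 gene (2%) in MR49F and 6 (12%) in LNCaP. Over all genes these shares were 11% and 9.32%. SMARCC2 start peaks stood at 1 gene (2%) in MR49F and 3 (6%) in LNCaP, against 6.16% and 7.82%. The cause of the difference between the lines was not tested.

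**Figure D1:**
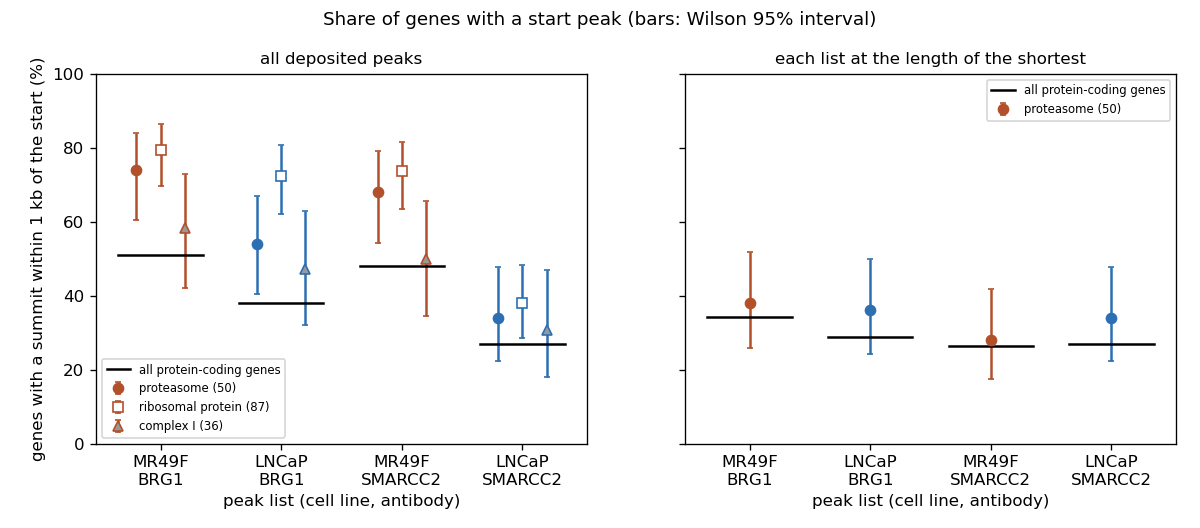
Share of genes with a peak summit within 1 kb of the gene start in each list (MR49F orange, LNCaP blue; vertical bars are Wilson 95% intervals, horizontal lines all protein-coding genes). In the full lists on the left 74% of proteasome genes had a BRG1 start peak in MR49F and 54% in LNCaP, and on the right, in lists of equal length, 38% and 36%.

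At genes with a start peak in both lines, the median tag counts were similar. Starts called in MR49F only (12 with BRG1, 21 with SMARCC2) or in LNCaP only (2 and 4) have no count in the other line. They were left out, so the comparison does not describe the starts behind the excess of MR49F. In each list the gene's strongest start peak was taken, here and below, so peaks set side by side can stand at different sites. For the 25 genes with a BRG1 start peak in both lines the median was 26 tags at the summit in MR49F and 28 in LNCaP, and the median local background was 5.64 and 7.21 tags. For the 13 genes with a SMARCC2 start peak in both lines the medians were 25 tags in MR49F and 27 in LNCaP over a local background of 4.14 and 6.48 tags. The count of tags was higher in MR49F at 13 of 25 genes with BRG1 and at 5 of 13 with SMARCC2, against 62.3% and 62.2% of all genes with such pairs. The authors' fold over local background was higher in MR49F at 18 of 25 and at 11 of 13 genes, against 75.2% and 80.8% of all such genes. The median local background in LNCaP was thus the higher of the 2 with both antibodies; its part in the counts of peaks was not tested.

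Counted over the whole gene and 2 kb on either side, 40 genes (80%, against 66.3% of all genes) held a BRG1 peak in MR49F and 37 (74%, against 56.1%) in LNCaP. A SMARCC2 peak was held by 37 genes (74%, against 64%) in MR49F and by 25 (50%, against 44.1%) in LNCaP. Over the whole gene, BRG1 peaks stood in both lines at 34 genes (68%, against 51.7% of all genes), in MR49F only at 6 (12%, against 14.6%) and in LNCaP only at 3 (6%, against 4.43%). SMARCC2 peaks stood in both lines at 23 (46%, against 41.6%), in MR49F only at 14 (28%, against 22.4%) and in LNCaP only at 2 (4%, against 2.47%). All 4 lists held a peak at 21 genes (42%, against 38.6%). These genes held 64 BRG1 peaks in MR49F and 53 in LNCaP, so that MR49F contributed 54.7% (45.7 to 63.4), against 54.8% over all genes. With SMARCC2 they held 67 peaks in MR49F and 42 in LNCaP, of which MR49F contributed 61.5% (52.1 to 70.1), against 63.8% over all genes. With each antibody the interval of the proteasome genes' share held the share over all genes.

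Set side by side by gene, BRG1 start peaks stood in both lines at 25 genes (50%, against 33% of all genes), in MR49F only at 12 (24%, against 18.1%) and in LNCaP only at 2 (4%, against 5.14%). SMARCC2 start peaks stood in both lines at 13 genes (26%, against 23.6%), in MR49F only at 21 (42%, against 24.3%) and in LNCaP only at 4 (8%, against 3.22%). In lists of equal length, SMARCC2 start peaks stood in MR49F only at 8 genes (16%, against 10% of all genes) and in LNCaP only at 11 (22%, against 10.5%). BRG1 start peaks stood in MR49F only at 10 (20%, against 14.1%) and in LNCaP only at 9 (18%, against 8.63%). The proteasome share lay above that of all genes in each of these 4 counts. The Wilson intervals of the MR49F-only counts, 8.34 to 28.5 with SMARCC2 and 11.2 to 33 with BRG1, held the share over all genes. Those of the LNCaP-only counts, 12.8 to 35.2 with SMARCC2 and 9.77 to 30.8 with BRG1, did not.

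In the full lists the gap between the antibodies was wider in LNCaP, with 37 BRG1 and 34 SMARCC2 starts in MR49F, against 27 and 17 in LNCaP. In lists of equal length it was wider in MR49F, with 19 and 14 starts, against 18 and 17 in LNCaP. In the full lists both antibodies gave a start peak at 34 genes in MR49F (68%, against 43.8% of all genes) and at 13 in LNCaP (26%, against 23.1%). BRG1 without SMARCC2 was seen at 3 starts in MR49F (against 7.26% of all genes) and at 14 in LNCaP (28%, against 15% of all genes). SMARCC2 without BRG1 was seen at 0 of 50 starts in MR49F (upper Wilson bound 7.13%, against 4.14% of all genes) and at 4 in LNCaP (8%, against 3.76%). Start peaks stood in all 4 lists at 10 genes (20%, against 20% of all genes) and in none at 10 (20%, against 40.8%). A common mixed pattern, BRG1 in both lines and SMARCC2 in MR49F but not LNCaP, held at 13 genes (26%, against 9.75%). These were PSMA1, PSMA2, PSMA4, PSMA7, PSMB4, PSMC3IP, PSMC4, PSMC5, PSMD3, PSMD13, PSME1, PSME2 and PSMG4. In lists of equal length 2 of the 50, PSMA7 and PSME1, had that pattern (4%, against 2.76% of all genes).

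**Figure D2:**
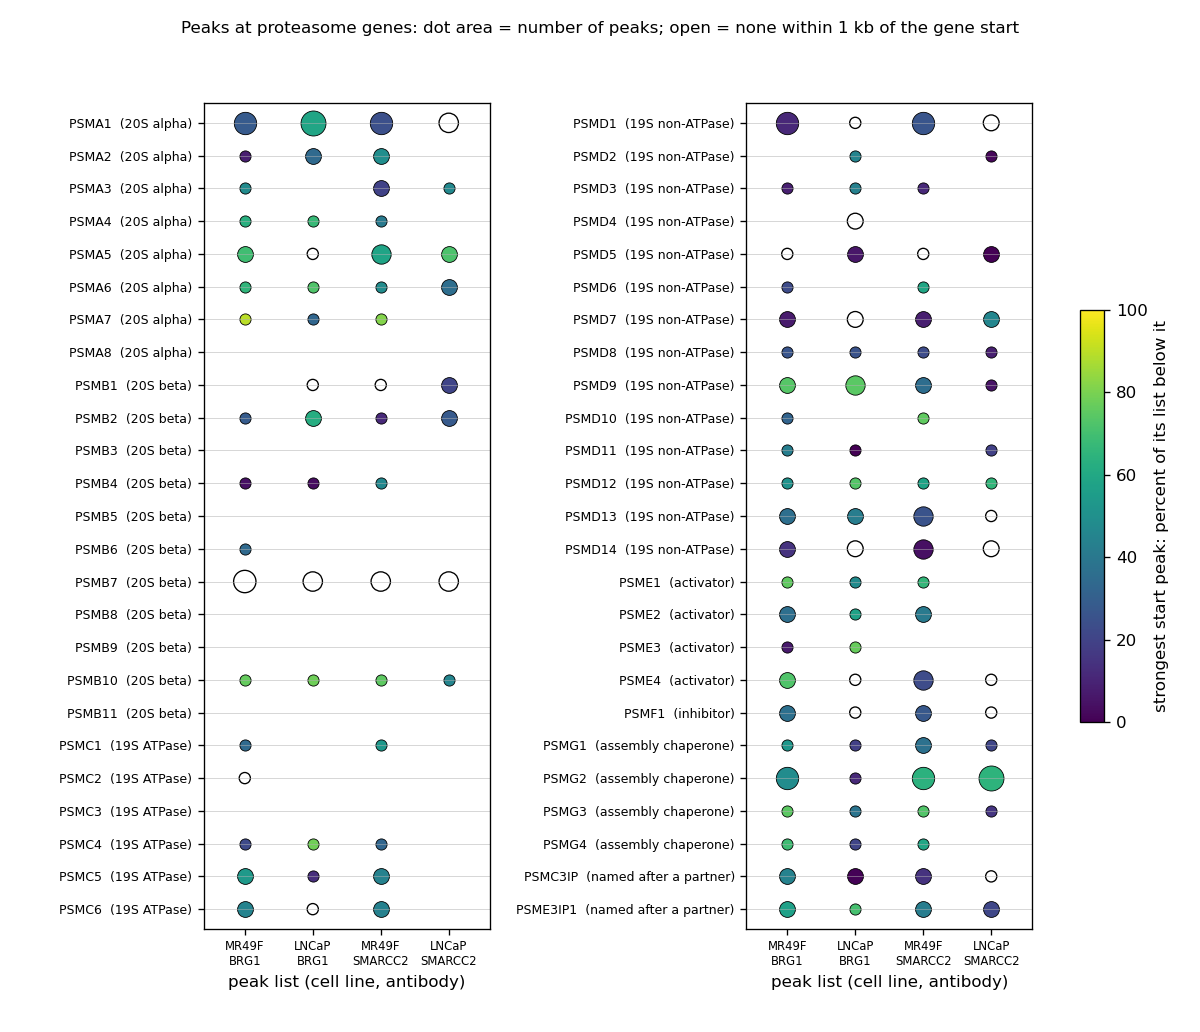
Peaks at each of the 50 genes, grouped by role, in the 4 lists (columns), with dot area for the number of peaks in the gene span plus 2 kb and colour for the percent of the list's peaks that were weaker than the gene's strongest start peak. Open dots mark genes with peaks but none within 1 kb of the start, and the 7 rows without dots are the genes with no peak in any list.

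The 13 promoters printed here are those of every gene whose start was called with both antibodies in 1 line and with neither in the other, and of the 3 interferon-inducible catalytic subunits. They come from the RefSeq promoter table (GRCh38.p14; 250 bases before to 50 after a gene start, 5′ to 3′ on the gene's strand), which holds 44 of the 50 genes. PSMC1 (chr14:90256303-90256602, plus strand), PSMC6 (chr14:52706950-52707249, plus), PSMD1 (chr2:231056617-231056916, plus) and PSMD10 (chrX:108091493-108091792, minus) had start peaks with both antibodies in MR49F and with neither in LNCaP. So did PSMD14 (chr2:161308175-161308474, plus), PSMD6 (chr3:64023445-64023744, minus), PSME4 (chr2:53970944-53971243, minus) and PSMF1 (chr20:1118352-1118651, plus). PSMD2 (chr3:184298991-184299290, plus) and PSMD5 (chr9:120842873-120843172, minus) had the reverse. In these 10, capitals mark the ETS-family letters CCGGAAG or their reverse complement, and PSMD1, PSMD10, PSMD2 and PSMD5 hold none. PSMB8 (chr6:32843998-32844297, minus), PSMB9 (chr6:32853942-32854241, plus) and PSMB10 (chr16:67936801-67937100, minus) encode the inducible subunits. In these, capitals mark the interferon-stimulated response element on either strand, and PSMB9 holds none. PSMF1, PSMD2 and PSMB8 have a pair of windows each, and the window shown is the one nearest a start peak or, for PSMB8, the one with a match.
PSMC1: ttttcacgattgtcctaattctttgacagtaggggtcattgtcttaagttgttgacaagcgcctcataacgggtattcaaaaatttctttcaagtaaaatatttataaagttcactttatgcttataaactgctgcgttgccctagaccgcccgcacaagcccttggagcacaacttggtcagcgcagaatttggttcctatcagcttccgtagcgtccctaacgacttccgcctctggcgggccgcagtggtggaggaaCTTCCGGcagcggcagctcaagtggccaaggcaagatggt
PSMC6: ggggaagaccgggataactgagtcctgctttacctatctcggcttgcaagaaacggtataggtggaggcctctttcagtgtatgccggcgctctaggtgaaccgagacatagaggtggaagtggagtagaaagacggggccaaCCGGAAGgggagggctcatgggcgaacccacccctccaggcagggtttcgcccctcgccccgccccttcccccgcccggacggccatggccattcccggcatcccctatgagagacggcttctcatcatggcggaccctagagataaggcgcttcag
PSMD1: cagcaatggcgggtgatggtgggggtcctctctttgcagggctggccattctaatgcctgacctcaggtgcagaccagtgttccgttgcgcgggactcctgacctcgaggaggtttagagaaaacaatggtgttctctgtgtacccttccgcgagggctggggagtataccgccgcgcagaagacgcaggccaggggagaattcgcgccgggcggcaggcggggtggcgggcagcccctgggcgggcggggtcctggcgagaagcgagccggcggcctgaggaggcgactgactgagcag
PSMD10: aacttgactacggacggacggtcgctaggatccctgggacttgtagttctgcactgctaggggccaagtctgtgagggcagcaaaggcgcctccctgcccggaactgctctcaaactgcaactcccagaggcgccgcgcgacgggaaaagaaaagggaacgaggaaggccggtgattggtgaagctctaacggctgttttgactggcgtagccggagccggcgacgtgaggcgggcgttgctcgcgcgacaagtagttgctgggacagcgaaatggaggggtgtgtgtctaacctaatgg
PSMD14: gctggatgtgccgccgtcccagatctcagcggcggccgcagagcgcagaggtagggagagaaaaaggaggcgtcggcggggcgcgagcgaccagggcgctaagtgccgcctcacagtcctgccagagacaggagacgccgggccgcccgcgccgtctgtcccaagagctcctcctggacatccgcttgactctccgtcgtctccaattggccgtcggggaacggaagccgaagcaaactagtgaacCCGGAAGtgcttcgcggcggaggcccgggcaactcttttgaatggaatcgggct
PSMD6: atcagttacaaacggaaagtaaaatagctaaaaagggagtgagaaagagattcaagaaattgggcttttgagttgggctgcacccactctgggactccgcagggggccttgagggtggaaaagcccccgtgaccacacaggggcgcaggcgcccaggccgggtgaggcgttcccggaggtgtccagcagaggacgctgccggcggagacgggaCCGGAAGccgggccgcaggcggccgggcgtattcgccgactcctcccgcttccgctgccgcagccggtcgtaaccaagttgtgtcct
PSME4: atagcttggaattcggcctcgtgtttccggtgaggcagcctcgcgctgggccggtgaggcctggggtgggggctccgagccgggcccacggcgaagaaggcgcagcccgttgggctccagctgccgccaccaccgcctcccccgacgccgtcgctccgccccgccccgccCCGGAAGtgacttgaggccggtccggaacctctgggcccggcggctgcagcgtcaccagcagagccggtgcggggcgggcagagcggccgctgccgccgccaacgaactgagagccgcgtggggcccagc
PSMF1: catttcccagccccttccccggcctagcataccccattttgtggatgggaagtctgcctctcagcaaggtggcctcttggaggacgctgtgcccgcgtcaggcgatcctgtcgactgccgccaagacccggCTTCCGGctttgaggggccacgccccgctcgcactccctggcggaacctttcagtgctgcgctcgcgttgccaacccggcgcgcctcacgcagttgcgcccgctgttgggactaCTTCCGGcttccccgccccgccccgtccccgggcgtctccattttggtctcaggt
PSMD2: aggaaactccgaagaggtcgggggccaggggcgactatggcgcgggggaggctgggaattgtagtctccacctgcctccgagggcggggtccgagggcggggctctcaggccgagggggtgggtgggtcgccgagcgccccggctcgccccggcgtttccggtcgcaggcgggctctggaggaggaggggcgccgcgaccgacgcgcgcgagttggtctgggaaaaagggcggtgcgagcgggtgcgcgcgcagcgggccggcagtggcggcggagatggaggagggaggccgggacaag
PSMD5: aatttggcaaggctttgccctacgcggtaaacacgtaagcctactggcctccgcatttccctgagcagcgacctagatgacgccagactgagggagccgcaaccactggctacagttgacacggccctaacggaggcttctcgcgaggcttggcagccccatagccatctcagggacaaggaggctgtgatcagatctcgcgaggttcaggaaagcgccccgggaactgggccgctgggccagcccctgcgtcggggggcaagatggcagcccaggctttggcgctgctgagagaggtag
PSMB8: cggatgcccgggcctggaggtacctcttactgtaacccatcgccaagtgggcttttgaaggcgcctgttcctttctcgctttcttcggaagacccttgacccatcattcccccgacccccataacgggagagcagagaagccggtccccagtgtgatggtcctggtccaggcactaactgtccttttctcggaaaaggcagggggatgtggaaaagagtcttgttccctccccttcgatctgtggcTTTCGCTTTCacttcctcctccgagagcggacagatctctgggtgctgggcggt
PSMB9: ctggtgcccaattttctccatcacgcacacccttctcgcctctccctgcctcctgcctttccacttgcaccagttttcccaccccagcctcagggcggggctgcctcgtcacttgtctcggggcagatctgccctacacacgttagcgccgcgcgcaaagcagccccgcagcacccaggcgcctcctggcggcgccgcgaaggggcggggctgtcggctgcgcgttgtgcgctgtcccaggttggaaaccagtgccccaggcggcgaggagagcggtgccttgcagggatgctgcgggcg
PSMB10: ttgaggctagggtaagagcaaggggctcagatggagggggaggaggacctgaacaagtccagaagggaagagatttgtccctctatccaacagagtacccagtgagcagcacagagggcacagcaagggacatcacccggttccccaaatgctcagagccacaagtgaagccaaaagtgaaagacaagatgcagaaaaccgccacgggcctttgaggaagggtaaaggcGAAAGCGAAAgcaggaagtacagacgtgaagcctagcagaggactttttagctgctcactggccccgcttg

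The letters CCGGAAG occurred in 17 of 44 proteasome promoters (38.6%), against 16.5% of the 15843 protein-coding genes in the table. They occurred in 6 of the 8 genes with both antibodies at the start in MR49F and neither in LNCaP, all but PSMD1 and PSMD10, against 21.8% of the 1925 genes of that class. They also occurred in 5 of the 9 proteasome genes with start peaks in all 4 lists, against 21.4% of the 3307 genes of that class, in 10 of the 27 with start peaks in 1 to 3 lists, against 22%, and in 2 of the 8 with none, against 8.13%. Neither of the 2 genes with the reverse pattern held them, against 18.3% of the 164 genes of that class. TGACNNNGC, the core of the antioxidant response element through which the factor NFE2L1 acts on proteasome genes, occurred in 15 (34.1%), against 17.9%. The interferon-stimulated response element occurred in 7 (15.9%), against 4.16%. They were PSMA4, PSMB4, PSMB8, PSMB10, PSME1, PSME2 and PSMG4.

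The GAS letters TTCNNNGAA occurred in 8 promoters (18.2%), against 8.98%. CCAAT, bound by NFY, occurred in 22 (50%), against 42.1%, and the SP/KLF letters GGGCGG in 31 (70.5%), against 64.3%. The AP-1 letters TGANTCA occurred in 3, against 8.04% of all genes, and the YY1 letters AAGATGGCG in 3, against 3.21%. The nuclear respiratory factor letters GCATGCGC occurred in 2, against 4.89%. The E-box, whose letters are CACGTG, occurred in 4, against 10.9%. A TATA box, written TATAAA, occurred in 5, against 12.4%. Both strands were read, and a site of TGANTCA can also match TGACNNNGC. A gene counted when any of its windows matched, with a mean of 1.25 windows for proteasome genes and 1.4 for all genes. A match is a run of letters, not a binding site. All these motifs were also split by the classes of start peaks, and only CCGGAAG is given for each class. In the 8 genes with both antibodies in MR49F and neither in LNCaP, GGGCGG also occurred in 6, against 79.6% of that class. CCAAT occurred in 3 of them, against 46.5%, TGACNNNGC in 2, against 19.1%, and TATAAA in 1, against 7.69%. The other motifs occurred in 0, against 3.12% to 11.6%.

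Summits rarely lay inside these windows. Of the members whose strongest start peak could be placed by strand, the summit fell in the window for 3 of 34 in MR49F BRG1 and 1 of 25 in LNCaP BRG1, and for 3 of 32 in MR49F SMARCC2 and 0 of 15 in LNCaP SMARCC2.

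Among the alpha subunits of the core, which form the gated outer rings, 7 of 8 genes had a BRG1 start peak in MR49F and 5 in LNCaP, against 51% and 38.1% of all genes. A SMARCC2 start peak stood at 7 in MR49F and 3 in LNCaP, against 47.9% and 26.9%. PSMA8, the subunit of the testis form, had no peak in any list. PSMA7 (gene ID 5688) had the strongest start peak of all 50 genes, with 53 tags at the summit in MR49F BRG1 and 30 in LNCaP BRG1, and 47 in MR49F SMARCC2 and no start peak in LNCaP SMARCC2. Its −log10 q was 28.9 in MR49F BRG1 and 5.08 in LNCaP BRG1, and 24.7 in MR49F SMARCC2. PSMA7 has no entry in the promoter table, so both of its gene ends were used, and the start of SS18L1 lies 375 bp from one of them.

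PSMA6 had start peaks in every list, with 30 tags in MR49F BRG1 and 28 in LNCaP BRG1, and 25 in MR49F SMARCC2 and 23 in LNCaP SMARCC2. PSMA5 had 30 tags in MR49F BRG1 and no start peak in LNCaP BRG1, and 29 tags in MR49F SMARCC2 and 33 in LNCaP SMARCC2. The last of these was the strongest LNCaP SMARCC2 start peak among the 50 genes, with a −log10 q of 10.5. At PSMA6 the lines had nearly the same number of tags, and at PSMA7 the BRG1 counts lay furthest apart among the alpha subunits.

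Among the beta subunit genes, which include the catalytic ones, BRG1 start peaks stood at 4 of 11 in MR49F and 3 in LNCaP, against 51% and 38.1% of all genes. SMARCC2 start peaks stood at 3 in each line, against 47.9% in MR49F and 26.9% in LNCaP. PSMB5, which carries the chymotrypsin-like activity that bortezomib blocks, PSMB3, a structural subunit, PSMB8 and PSMB9, which replace catalytic subunits in the immunoproteasome, and PSMB11, the catalytic subunit of the thymus form, had no peak within 2 kb of the gene in any list. PSMA8 and PSMC3 complete the 7 genes without a peak (14%, against 26.9% of all genes). PSMB9 shares its upstream region with TAP1, whose start lies 488 bp away. Local background around PSMB5 and PSMB11, over 10 Mb, was 1.34 (BRG1) and 1.44 (SMARCC2) times as high in MR49F as in LNCaP after both were set to their autosomal medians.

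PSMB10, the remaining inducible catalytic subunit, had a start peak in every list. It had 31 tags in MR49F BRG1 and 34 in LNCaP BRG1, and 30 in MR49F SMARCC2 and 31 in LNCaP SMARCC2. The local background beneath was 3.13 tags in MR49F BRG1 and 6.18 in LNCaP BRG1, and 2.39 in MR49F SMARCC2 and 7.61 in LNCaP SMARCC2. The fold was therefore 7.75 in MR49F BRG1 and 4.86 in LNCaP BRG1, and 9.13 in MR49F SMARCC2 and 3.69 in LNCaP SMARCC2, with nearly the same number of tags in both lines. Its ranks were high in 3 lists, above 76.5% of the MR49F BRG1, 78% of the LNCaP BRG1 and 75.3% of the MR49F SMARCC2 peaks, and above 45.6% of the LNCaP SMARCC2 peaks. Over 10 Mb the local background around PSMB10 was 0.782 (BRG1) and 0.833 (SMARCC2) times as high in MR49F as in LNCaP.

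PSMB2 had start peaks in every list, with 21 tags in MR49F BRG1 and 27 in LNCaP BRG1, and 19 in MR49F SMARCC2 and 28 in LNCaP SMARCC2. PSMB4 lacked only a LNCaP SMARCC2 peak, and PSMB6, which carries the caspase-like activity, had a single start peak, of 26 tags in MR49F BRG1. PSMB1 had a start peak in LNCaP SMARCC2 alone, and its other peaks lay within 316 bp of the start of the neighbouring TBP gene. PSMB7, the trypsin-like subunit, had no start peak but 3 or 4 peaks inside the gene in each list.

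The ATPases of the cap, whose ring unfolds the substrate, carried SMARCC2 start peaks in MR49F and none in LNCaP. SMARCC2 start peaks stood at 4 of 6 ATPase genes in MR49F and 0 in LNCaP, against 47.9% and 26.9% of all genes. All 4 were called in MR49F only, against 24.3% of all genes. Over the whole genes and 2 kb on either side there were 6 summits in MR49F and 0 in LNCaP. The MR49F peak past the end of PSMC6, 330 bp from the start of STYX, lay in a region held by all 4 lists. A LNCaP SMARCC2 peak thus stood in that region too, with its summit outside the 2 kb limit. BRG1 start peaks stood at 4 in MR49F and 2 in LNCaP, against 51% and 38.1%, with 7 peaks in MR49F and 3 in LNCaP over the whole genes. In lists of equal length PSMC1 was the 1 ATPase gene with a SMARCC2 start peak in MR49F and none in LNCaP.

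PSMC1 had 26 tags in MR49F BRG1 and 33 in MR49F SMARCC2, and no peak in either LNCaP list. PSMC6 had 22 tags in MR49F BRG1 and 25 in MR49F SMARCC2 and no start peak in LNCaP, where its one BRG1 peak stood 404 bp from the start of STYX. At PSMC4 and PSMC5 BRG1 peaks stood in both lines, with 22 tags in MR49F and 29 in LNCaP at PSMC4, and 25 in MR49F and 27 in LNCaP at PSMC5. SMARCC2 peaks of 27 and 24 tags stood at these starts in MR49F, and none in LNCaP. The start of FTSJ3 lies 58 bp from a start of PSMC5. PSMC2 had 1 peak, of 14 tags in MR49F BRG1 and 1352 bp upstream of the start, and PSMC3 had none.

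Among the non-ATPase genes of the cap, 11 of 14 had a BRG1 start peak in MR49F and 8 in LNCaP, against 51% and 38.1% of all genes. A SMARCC2 start peak stood at 10 in MR49F and 7 in LNCaP, against 47.9% and 26.9%. This group held 4 of the 8 genes with both antibodies at the start in MR49F and neither in LNCaP (8 of 50 is 16%, against 11.5% of all genes). It also held both genes with the reverse, PSMD2 and PSMD5 (4%, against 1.08%).

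PSMD6, a lid subunit, had 26 tags in MR49F BRG1 and 31 in MR49F SMARCC2. PSMD14, the deubiquitinase that removes ubiquitin chains before a substrate enters, had 18 tags in each MR49F list at its start. PSMD1, a scaffold of the cap base, had 14 tags in MR49F BRG1 and 16 in MR49F SMARCC2. PSMD1 and PSMD14 were the weakest of the 8 by tags with BRG1, and PSMD1, PSMD14, PSME4 and PSMF1 also held LNCaP peaks of both antibodies elsewhere in the gene. At PSME4 these had 25 tags with BRG1 and 17 with SMARCC2, 8820 and 8249 bp downstream of the start. At PSMF1 they had 24 and 28 tags, 3986 and 4383 bp downstream. A LNCaP SMARCC2 peak of 23 tags stood 1480 bp downstream of the PSMD1 start, outside the 1 kb limit.

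PSMD10, also called gankyrin, an assembly chaperone of the cap base on the X chromosome, had 24 tags in MR49F BRG1 and 35 in MR49F SMARCC2. With SMARCC2 its peak was stronger than 75.4% of the list. Local background around PSMD10 was 1.36 (BRG1) and 1.34 (SMARCC2) times as high in MR49F as in LNCaP, and the start of ATG4A lies 236 bp away. Outside this group, PSME4 had 27 tags in MR49F BRG1 and 15 in MR49F SMARCC2, and PSMF1 had 24 and 23. PSME4 encodes the nuclear activator PA200, and PSMF1 the inhibitor PI31. The start of ACYP2 lies 120 bp from that of PSME4. Local background around PSMF1 was 1.23 (BRG1) and 1.33 (SMARCC2) times as high in MR49F as in LNCaP. For PSMC1, PSMC6, PSMD1, PSMD6, PSMD14 and PSME4 these ratios lay between 0.929 and 1.17.

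None of these 8 genes kept the pattern when lists of equal length were used, where 1 other gene, PSMG4, had it (2%, against 5.18% of all genes). With a −log10 q of 5 or more in every list, 10 genes had the pattern (20%, against 13.7% of all genes), among them 6 of the 8. PSMD14 and PSMD1 then dropped out.

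PSMD2, the scaffold that docks ubiquitin-like proteins, had no MR49F start peak, against 26 tags in LNCaP BRG1 and 22 in LNCaP SMARCC2. PSMD5, a further assembly chaperone of the base, had none in MR49F, against 23 tags in LNCaP BRG1 and 19 in LNCaP SMARCC2. Of these 4 LNCaP peaks, 3 were near the caller's threshold, with a −log10 q of 2.79 at PSMD5 with BRG1, 2.27 at PSMD2 with SMARCC2 and 2.02 at PSMD5 with SMARCC2. PSMD5 also had a peak inside the gene in every list, 22624 to 22845 bp from the start, with 41 tags in MR49F BRG1 and 25 in LNCaP BRG1, and 47 in MR49F SMARCC2 and 29 in LNCaP SMARCC2.

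PSMD12, a lid subunit, had start peaks in every list, with 25 tags in MR49F BRG1 and 36 in LNCaP BRG1, and 28 in MR49F SMARCC2 and 38 in LNCaP SMARCC2. PSMD8 and PSMD9 did too. PSMD8 had 20 tags in MR49F BRG1 and 30 in LNCaP BRG1, and 22 in MR49F SMARCC2 and 27 in LNCaP SMARCC2. PSMD9, a chaperone of the base whose start lies 179 bp from that of HPD, had 38 tags in MR49F BRG1 and 32 in LNCaP BRG1, and 25 in MR49F SMARCC2 and 20 in LNCaP SMARCC2. At PSMD12 and PSMD8 the LNCaP peaks thus held more tags, unadjusted for depth, than the MR49F peaks with both antibodies, and at PSMD9 fewer. PSMD4, a ubiquitin receptor, had a pair of LNCaP BRG1 peaks inside the gene and no peak in the other lists.

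The 4 activator genes had BRG1 start peaks at all 4 in MR49F and 3 in LNCaP, against 51% and 38.1% of all genes. They had SMARCC2 start peaks at 3 in MR49F and 0 in LNCaP, against 47.9% and 26.9%. PSME1, 1 of the 2 subunits of the interferon-inducible activator PA28, had 41 tags in MR49F BRG1 and 29 in LNCaP BRG1, and 40 in MR49F SMARCC2 and no peak in LNCaP SMARCC2. PSME2, the other subunit, had 27 tags in MR49F BRG1 and 24 in LNCaP BRG1, and 27 in MR49F SMARCC2 and none in LNCaP SMARCC2. The start of RNF31 lies 265 bp from that of PSME2 and was the nearer to both BRG1 summits. Local background around PSME1 and PSME2 was 1.34 (BRG1) and 1.36 (SMARCC2) times as high in MR49F as in LNCaP. PSME3, the nuclear PA28 subunit, went the other way with BRG1, with 22 tags in MR49F and 31 in LNCaP, and had no SMARCC2 peak. Its BRG1 summits stood 294 bp downstream of the start in MR49F and 466 bp upstream in LNCaP.

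The 4 assembly chaperone genes of the core had BRG1 start peaks in both lines at all 4, against 33% of all genes. They had SMARCC2 start peaks at 4 in MR49F and 3 in LNCaP, against 47.9% and 26.9%. PSMG3 had 38 tags in MR49F BRG1 and 27 in LNCaP BRG1, and 35 in MR49F SMARCC2 and 28 in LNCaP SMARCC2. PSMG1 had 22 tags in MR49F BRG1 and 19 in LNCaP BRG1, and 19 in MR49F SMARCC2 and 20 in LNCaP SMARCC2. Its BRG1 summits stood 305 bp downstream of the start in MR49F and 732 bp upstream in LNCaP. PSMG4 had 28 tags in MR49F BRG1 and 20 in LNCaP BRG1, and 25 in MR49F SMARCC2 and no start peak in LNCaP SMARCC2. PSMG2 had 34 tags in MR49F BRG1 and 26 in LNCaP BRG1, and 34 in MR49F SMARCC2 and 25 in LNCaP SMARCC2. These SMARCC2 summits stood at different sites, 609 bp upstream of a PSMG2 start in MR49F and 277 bp downstream in LNCaP. A weaker LNCaP SMARCC2 peak by −log10 q, 649 bp upstream, had 29 tags. The starts of PSMG2 and CEP76 lie 265 bp apart.

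The 2 genes in the set by symbol alone also had start peaks. PSMC3IP, a meiotic recombination factor, had 27 tags in MR49F BRG1 and 26 in LNCaP BRG1, and 20 in MR49F SMARCC2 and no start peak in LNCaP SMARCC2. PSME3IP1, a partner of PSME3, had 26 tags in MR49F BRG1 and 29 in LNCaP BRG1, and 28 in MR49F SMARCC2 and 27 in LNCaP SMARCC2.

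Start peaks at proteasome genes were weak to middling within their lists. The median −log10 q was 8.08 in MR49F BRG1 and 6.13 in LNCaP BRG1, and 9.02 in MR49F SMARCC2 and 4.39 in LNCaP SMARCC2. Over all genes with a start peak the medians were 10.8 in MR49F BRG1 and 6.99 in LNCaP BRG1, and 10.8 in MR49F SMARCC2 and 6.32 in LNCaP SMARCC2. The median proteasome start peak was stronger than 42.4% of the MR49F BRG1 list and 43.7% of the LNCaP BRG1 list, and than 41.5% of the MR49F SMARCC2 list and 21.3% of the LNCaP SMARCC2 list. No proteasome start peak reached the strongest 10% of any list, which held the start peaks of 5.5% of all genes with one in MR49F BRG1, 5.11% in LNCaP BRG1, 2.49% in MR49F SMARCC2 and 2.55% in LNCaP SMARCC2.

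The median summit lay downstream of the start in all 4 lists, by 268 bp in MR49F BRG1 and 149 bp in LNCaP BRG1. With SMARCC2 it lay 316 bp downstream in MR49F and 221 bp in LNCaP. Over all genes the medians were 256 bp in MR49F BRG1 and 194 bp in LNCaP BRG1, and 278 bp in MR49F SMARCC2 and 260 bp in LNCaP SMARCC2. With BRG1 67.6% of the summits of known strand lay downstream in MR49F and 56% in LNCaP, against 71.2% and 64.9% of all genes. With SMARCC2 71.9% did in MR49F and 80% in LNCaP, against 74.3% and 70.5%. Of the start peaks of known strand, 20.6% in MR49F BRG1 and 16% in LNCaP BRG1 lay within 250 bp of the start, against 27.8% and 33.6% of all genes. With SMARCC2 18.8% did in MR49F and 33.3% in LNCaP, against 26.7% and 26.9%.

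**Figure D3:**
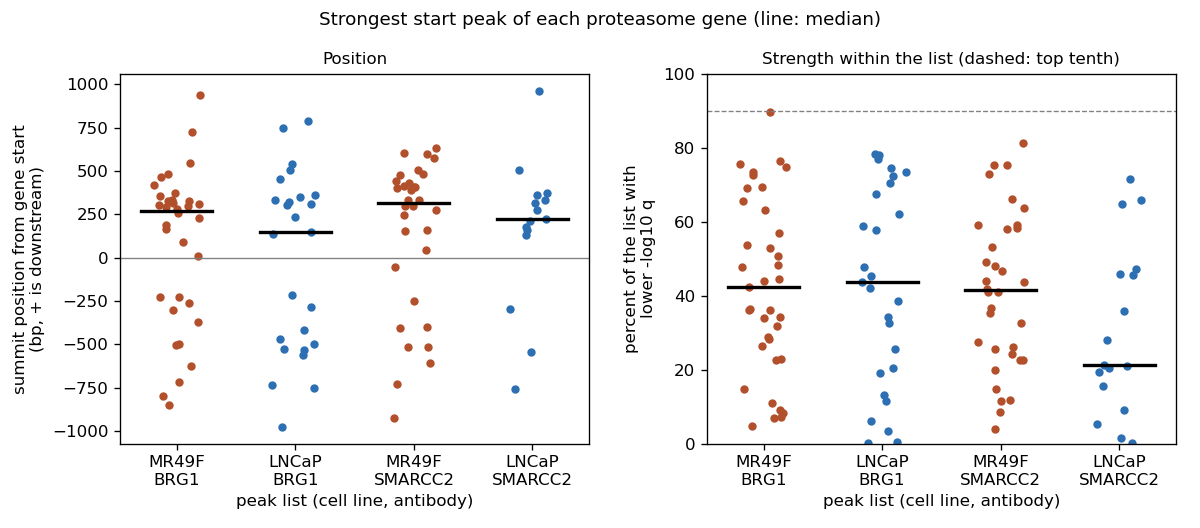
Position (left, bp from the gene start, positive downstream) and strength (right, percent of the list's peaks with a lower −log10 q) of the strongest start peak of each proteasome gene in each list (MR49F orange, LNCaP blue, black lines are medians). The median positions are downstream of the start in all 4 lists, and no point lies above the dashed line of the strongest 10%.

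The strongest peaks at these genes lay away from the starts. PSMG2 had a pair of summits 14643 and 16792 bp downstream of one of its starts in MR49F BRG1, the nearest coding start being its own. At the first, chr18:12673381, there were 75 tags in MR49F BRG1 and no peak in LNCaP BRG1, and 104 in MR49F SMARCC2 and 26 in LNCaP SMARCC2. At the second, chr18:12675530, there were 81 tags in MR49F BRG1 and no peak in LNCaP BRG1, and 88 in MR49F SMARCC2 and 41 in LNCaP SMARCC2. These MR49F peaks were stronger than 95.8% to 98.6% of their lists. Local background around PSMG2 was 1.28 (BRG1) and 1.29 (SMARCC2) times as high in MR49F as in LNCaP, and its part in these peaks was not tested.

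PSMA1 had a site 99874 bp upstream of its annotated start and inside the longer gene span, near chr11:14620260. It had 53 tags in MR49F BRG1 and 63 in LNCaP BRG1, and 71 in MR49F SMARCC2 and 47 in LNCaP SMARCC2. A further site, near chr11:14644164, stood just past the upstream end of that span, where the promoter table lists no start for PSMA1. It had 49 tags in MR49F BRG1 and 45 in LNCaP BRG1, and 51 in MR49F SMARCC2 and 26 in LNCaP SMARCC2. One more, near chr11:14641964, was called in LNCaP only, with 35 tags with BRG1 and 30 with SMARCC2. PSMA1 had the most peaks of the 50 genes, 4 in MR49F BRG1 and 5 in LNCaP BRG1, and 4 in MR49F SMARCC2 and 3 in LNCaP SMARCC2.

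PSMB7 had its strongest site inside the gene, near chr9:124390901, with 48 tags in MR49F BRG1 and 36 in LNCaP BRG1, and 68 in MR49F SMARCC2 and 35 in LNCaP SMARCC2. A second PSMB7 site, near chr9:124384764, had 42 tags in MR49F BRG1 and 19 in LNCaP BRG1, and 44 in MR49F SMARCC2 and 26 in LNCaP SMARCC2. PSMD13, a lid subunit that shares its start region with SIRT3, had a site 3579 bp downstream, near chr11:240555, with 51 tags in MR49F BRG1 and 33 in LNCaP BRG1, and 45 in MR49F SMARCC2 and 36 in LNCaP SMARCC2. At each of these 3 sites both MR49F peaks held more tags than both LNCaP peaks.

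PSMD14 had a site 62947 bp downstream of its start, near chr2:161371372, with 48 tags in MR49F BRG1 and 21 in LNCaP BRG1, and 64 in MR49F SMARCC2 and 20 in LNCaP SMARCC2. The nearest coding start to it is that of TBR1. A site 6466 bp downstream, near chr2:161314891, had no peak in MR49F BRG1 and 37 tags in LNCaP BRG1, and 37 in MR49F SMARCC2 and 35 in LNCaP SMARCC2. The start of PSMD14 was thus called in MR49F only, while the gene held peaks with both antibodies in both lines.

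PSMD7, the lid partner of PSMD14, had more tags in LNCaP at a site away from its start. This site 1463 bp downstream of the start, near chr16:74298277, had 39 tags in MR49F BRG1 and 57 in LNCaP BRG1, and 38 in MR49F SMARCC2 and 63 in LNCaP SMARCC2. Local background around PSMD7 was 0.629 (BRG1) and 0.704 (SMARCC2) times as high in MR49F as in LNCaP, the lowest ratios among the 50 genes. PSMA5, PSMD1 and PSMD9 were the other genes with 8 or more peaks in all, and the summits of PSMA5 away from its start lay 206 to 995 bp from the start of SORT1.

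Across all 4 lists these genes held 226 peaks, of which 127 lay within 1 kb of a start. For 67 the nearest coding start in the promoter table was that of another gene. These 67 include every peak of the 6 genes with no entry in that table, whose own starts could not be the nearest. Of the 50 genes, 10 have a start within 1 kb of another coding gene's start, and a peak there cannot be assigned to one of them. Without them, BRG1 start peaks stood at 28 of 40 genes (70%) in MR49F and 20 (50%) in LNCaP, against 51% and 38.1% of all genes. SMARCC2 start peaks stood at 25 (62.5%) in MR49F and 15 (37.5%) in LNCaP, against 47.9% and 26.9%.

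Joining overlapping peaks across the lists, by 1 bp or more, gave 81 regions at proteasome genes. Of these, 26 (32.1%) were in all 4 lists, against 25.3% of the regions at any protein-coding gene. A further 10 (12.3%) were held by both antibodies in MR49F only, against 17.6%, and 2 (2.47%) by both in LNCaP only, against 3.66%. Regions in both lines but fewer than 4 lists numbered 27 (33.3%, against 21.6%). Single-list regions numbered 7 in MR49F (8.64%, against 19.3%) and 9 in LNCaP (11.1%, against 12.6%). In lists of equal length the regions held by both antibodies in MR49F only came to 1.52%, and those in LNCaP only to 9.09%, against 11.8% and 9.88% at any gene.

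**Figure D4:**
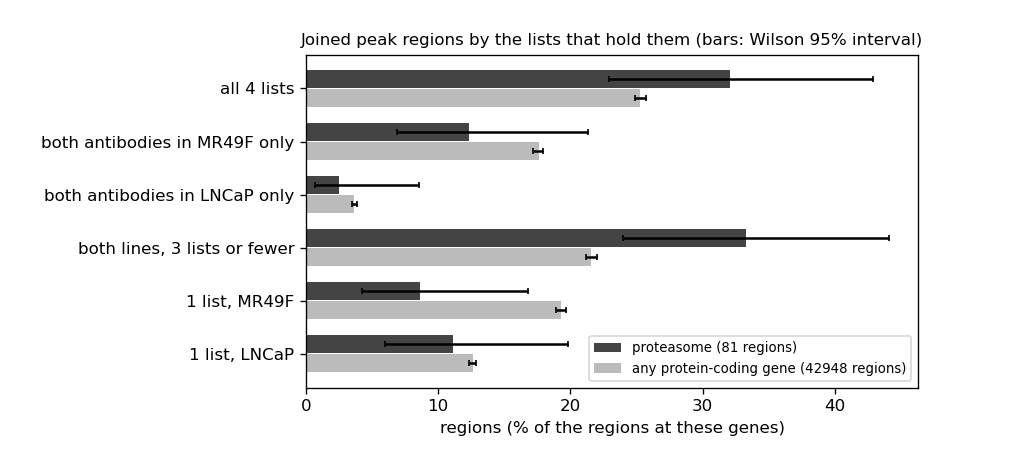
Joined peak regions at proteasome genes (dark bars, 81 regions) and at any protein-coding gene (light bars), as percent of the regions, by the lists that hold them, with Wilson 95% intervals as error bars. Regions in all 4 lists made up 32.1% at proteasome genes and 25.3% at any gene, and regions with both antibodies in MR49F only 12.3% and 17.6%.

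Other large housekeeping complexes gave start shares on either side of those of the proteasome. Among 87 cytosolic ribosomal protein genes, 79.3% had a BRG1 start peak in MR49F and 72.4% in LNCaP, and 73.6% a SMARCC2 start peak in MR49F and 37.9% in LNCaP. Among 36 genes of mitochondrial complex I the shares were 58.3% in MR49F and 47.2% in LNCaP with BRG1, and 50% in MR49F and 30.6% in LNCaP with SMARCC2. The Wilson intervals of all 3 sets overlapped in each list, from 60.4 to 84.1 for proteasome genes, 69.6 to 86.5 for ribosomal protein genes and 42.2 to 72.9 for complex I genes in MR49F BRG1.

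A list of 26 genes that work with the proteasome was read in the same way, among them ubiquitin genes, shuttle factors, the VCP unfoldase, the chaperone POMP and the NFE2L factors that act on proteasome promoters. With BRG1, 22 (84.6%) had a start peak in MR49F and 22 (84.6%) in LNCaP. With SMARCC2, 20 (76.9%) had one in MR49F and 15 (57.7%) in LNCaP. Over all genes the start shares were 51% in MR49F and 38.1% in LNCaP with BRG1, and 47.9% in MR49F and 26.9% in LNCaP with SMARCC2. Both antibodies in MR49F and neither in LNCaP were seen at 2 (7.69%), and the reverse at 2 (7.69%), against 11.5% and 1.08% of all genes.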

How the data were processed

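The series holds 6 samples, ChIP-seq of 2 antibodies and 1 input in each of 2 lines, and 4 deposited peak lists, 1 per precipitated library. The submitters' processing notes list MACS2 2.1.0, SAMtools, BWA 0.7.10 and hg38 as tools and build, with no role or order. For control choice, read filters and duplicates, nothing is given in the sources used here. The deposited lists give for each peak the authors' fold (a ratio of tags to local background), −log10 p-value and −log10 q-value, and a deposited score that was not used. The lowest −log10 q-value in the lists was 2.001, just above what a q-value threshold of 0.01 gives. All of these are the authors' own values. Ranks were made within a list by −log10 q.

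Tags at the summit and local background were solved from the deposited fold and p-value. Tags came out whole, to within 0.002 in −log10 p, for 99.66% to 99.98% of peaks. The LNCaP values needed a scale of 0.9708 (BRG1) and 0.9198 (SMARCC2), the MR49F values no scale. A summit was assigned to a gene when it lay in the gene span or within 2 kb, and to a gene start when within 1 kb. Starts came from the RefSeq promoter table (44 of 50 genes; both gene ends for PSMA7, PSMB1, PSMB6, PSMB7, PSMD4 and PSMG3). Peaks sharing 1 bp were joined into regions. Shares carry Wilson 95% intervals. No test was run, since there is 1 library per line and antibody. The counting code was tested on simulated peaks. Python 3.11.15, NumPy 2.4.6, pandas 2.3.3, SciPy 1.17.1 and matplotlib 3.10.9 were used.

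The genes, comparison lists, motifs and naming rule were chosen with earlier results of these data known. Values in every list were given for genes with start peaks of both antibodies in 1 line only, the genes with most peaks, the 3 strongest start peaks per list, genes without peaks, and the inducible and tissue-specific subunits; others were named in their role group after their values were seen. Alternatives changed the window, the overlap rule, the peak threshold, the length of the lists and the members.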

Additional observations from a re-analysis of the deposited data

How the results depend on the processing

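No paired analysis was possible because each line and antibody has 1 library, and no library could be left out for the same reason. Of 181 alternative values, 123 stayed within the Wilson interval of the value reported. All values without the partner-named genes or without genes sharing a start did, as did all 10 with any overlap of the peak. So did all 11 within 2 kb of the start. Leaving those genes out kept 48 or 40 of the same 50 genes and the same peaks, so these values had little room to move. The causes of the other shifts were not tested beyond what each setting removes.

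Lists of equal length, chosen after the data had been seen, turned the SMARCC2 peak share of MR49F round, to 42.5% (47.9% over all genes). Here and below, brackets hold the share over all genes or over regions at any gene. Genes with a peak came to 56% in MR49F BRG1 (50.1%), 56% in LNCaP BRG1 (46.7%) and 46% in MR49F SMARCC2 (43.4%). Genes with SMARCC2 in LNCaP only came to 22% (10.6%). At starts the shares were 38% in MR49F BRG1 (34.1%), 36% in LNCaP BRG1 (28.7%) and 28% in MR49F SMARCC2 (26.3%). BRG1 in LNCaP only came to 18% (8.63%), SMARCC2 in MR49F only to 16% (10%) and SMARCC2 in LNCaP only to 22% (10.5%). Both antibodies in MR49F and neither in LNCaP came to 2% (5.18%), and BRG1 in both lines with SMARCC2 in MR49F only to 4% (2.76%). Regions came to 19.7% in all 4 lists (23%) and 1.52% with both antibodies in MR49F only (11.8%). They came to 9.09% with both in LNCaP only (9.88%) and 24.2% in 1 LNCaP list (21%).

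With the 10000 strongest peaks per list, genes with a peak came to 14% in MR49F BRG1 (23.7%) and 24% in LNCaP BRG1 (23.3%). With SMARCC2 they came to 14% in MR49F (19.6%) and 20% in LNCaP (21.7%). The MR49F peak share was 40% with BRG1 (49.5%) and 50% with SMARCC2 (47.9%), and SMARCC2 in MR49F only came to 2% of genes (6.54%). Start shares were 2% in MR49F BRG1 (11% over all genes) and 12% in LNCaP BRG1 (9.32%), and 2% in MR49F SMARCC2 (6.16%) and 6% in LNCaP SMARCC2 (7.82%). Start peaks in MR49F only were at 2% with BRG1 (7.4%), 2% with SMARCC2 (3.85%) and 2% with both (2.21%). BRG1 in both lines with SMARCC2 in MR49F only was at 0% (0.559%). Regions came to 7.41% in all 4 lists (14.1%) and 11.1% with both antibodies in LNCaP only (11.8%). They came to 18.5% in both lines and fewer than 4 lists (18.2%), and 40.7% in 1 LNCaP list (25%).

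With a −log10 q of 5 or more, genes with a peak came to 56% in LNCaP BRG1 (45.7%) and 30% in LNCaP SMARCC2 (34.6%). BRG1 in MR49F only came to 24% (19.1%) and the MR49F SMARCC2 peak share to 71.8% (68.3%). Start shares were 60% in MR49F BRG1 (44.5%) and 36% in LNCaP BRG1 (27.8%), and 14% in LNCaP SMARCC2 (17.8%). SMARCC2 starts in LNCaP only came to 2% (2.45%), and both antibodies in LNCaP and neither in MR49F to 0% (0.823%). Regions came to 14.3% in all 4 lists (21%) and 20% in 1 MR49F list (21.3%). Within 500 bp of the start the shares were 58% in MR49F BRG1 (38.8%), 32% in LNCaP BRG1 (29.3%) and 50% in MR49F SMARCC2 (36%). BRG1 in both lines with SMARCC2 in MR49F only came to 14% (6.59%). The gene span alone held a BRG1 peak at 60% of genes in MR49F (58.6%) and 50% in LNCaP (48.2%). With 10 kb on either side, LNCaP-only genes came to 2% with BRG1 (4.08%) and 0% with SMARCC2 (2.49%). Joining summits within 200 bp gave 10.2% of regions in all 4 lists (11.7%), 25.4% in 1 MR49F list (30.4%) and 21.2% in 1 LNCaP list (22.8%).

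The counts rest on peaks past the caller's threshold at unknown total depth. Start peaks of these genes sat low in their lists, and in lists of equal length their count in MR49F BRG1 was 19 of 50, against 37 in the full list.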
